A study of Homo sapiens with 9 samples.

Results

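The integrated stress response (ISR) genes described here are 10 named genes, chosen by symbol from the deposited count table: the transcription factors ATF4, ATF5, DDIT3, ATF3, CEBPB and CEBPG and the effectors TRIB3, CHAC1, PPP1R15A and SESN2. All 10 were found among the 64253 genes of the table, and all 10 passed the filter on low counts, which left 16366 genes for testing. RNA was sequenced from EPC2 cells, which the labels describe as a normal esophageal squamous cell line, with 3 libraries per group. Fox cells were transfected with a FOXF1 plasmid using Lipofectamine 2000, Lipo cells were transfected with the empty vector using the same reagent, and Ctrl cells were untreated. FOXF1 encodes a forkhead transcription factor. Every group is the same cell line, and neither the time between transfection and harvest nor the share of cells that took up plasmid is stated in the labels. No group received the lipid reagent without DNA, so that in Lipo against Ctrl the reagent and the vector DNA cannot be told apart. The study's design calls the triplicates biological without saying what separates them. Each p-value is set against the variation among libraries within groups, pooled over the 3 groups, and this variation may be technical in part.

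The ISR is a translational control pathway. The kinases PERK, GCN2, PKR and HRI phosphorylate the initiation factor eIF2 under endoplasmic reticulum stress, amino acid shortage, double-stranded RNA or haem shortage and mitochondrial stress, which lowers general protein synthesis. Translation of a few mRNAs with upstream open reading frames, among them those of ATF4, ATF5, DDIT3 and PPP1R15A, goes up at the same time. ATF4 then activates genes of amino acid supply and redox balance together with the feedback genes TRIB3 and PPP1R15A. The counts measure mRNA only, and neither eIF2 phosphorylation nor ATF4 protein was measured here. In bulk RNA, a change in the number of responding cells and a change in the RNA per cell cannot be told apart.

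ATF4 acts through a composite site to which an ATF4 and C/EBP dimer binds, called the C/EBP-ATF response element, with the letters TGATGNAA. Sequences are shown for the members whose promoters hold this site or the cAMP response element TGACGTCA, a site bound by ATF and CREB factors, because these are the DNA letters through which the family is known to act on its own members. Both motifs were searched on both strands in the 250 bases before each RefSeq transcription start (GRCh38.p14), for 19 start sites of the 10 members and 35116 start sites in all. The response element was found in 3 of the 19 member promoters, at 1 start site each of ATF3, CEBPG and CHAC1, and in 3.14% of all promoters. The cAMP response element was found in 1 of the 19, at PPP1R15A, and in 1.65% of all promoters. The endoplasmic reticulum stress element, CCAAT and CCACG with 9 bases between them, was found in 0 of the 19 and in 0.074% of all promoters. A match is a string of letters and not a measured binding site, and the windows of the members had a median GC content of 67.2% against 58.0% over all promoters. The sequences below are from the plus strand, 5′ to 3′, with the motif in capitals. They lie at chr1:212565157-212565283 for ATF3, chr19:33374011-33374112 for CEBPG, chr15:40953251-40953280 for CHAC1 and chr19:48872303-48872391 for PPP1R15A.
ATF3: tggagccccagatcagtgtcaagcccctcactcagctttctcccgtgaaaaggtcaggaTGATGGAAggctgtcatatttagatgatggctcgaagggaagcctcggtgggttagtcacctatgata
CEBPG: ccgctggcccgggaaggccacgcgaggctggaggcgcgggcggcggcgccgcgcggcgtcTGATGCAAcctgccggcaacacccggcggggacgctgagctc
CHAC1: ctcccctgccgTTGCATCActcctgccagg
PPP1R15A: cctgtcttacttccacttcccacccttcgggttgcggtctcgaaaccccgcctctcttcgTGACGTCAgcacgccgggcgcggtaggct
The motif lies 191 to 184 bases before the start site in ATF3 and 42 to 35 bases before it in CEBPG. In CHAC1 it lies 209 to 202 bases before the RefSeq start on the minus strand, so that the plus strand shows its reverse complement, and inside an exon of a GENCODE 29 transcript. In PPP1R15A the cAMP response element lies 58 to 51 bases before the start.

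The libraries held between 34390666 and 39973289 counted reads. FOXF1 had 367, 184 and 141 reads in the Fox libraries, 0, 0 and 6 in the Lipo libraries and 1, 0 and 0 in the Ctrl libraries. Counts per gene do not tell plasmid transcripts from those of the cell's own FOXF1 gene. Genes of the mitochondrial genome took 14.1 ± 0.517% of counts in Fox, 11.2 ± 0.761% in Lipo and 20.9 ± 2.001% in Ctrl (SD, n = 3 each). The squamous label was checked on 11 marker genes: TP63 and SOX2, which define squamous basal cells, had 0 reads in all 9 libraries, KRT5 had 8 to 19 reads and KRT14 at most 4. KRT13 had at most 2 reads, KRT4 and DSG3 at most 4 and KRT6A 23 to 67. The remaining squamous markers, ITGB4, KRT17 and PAX9, were at higher levels. CPM, the read count scaled to the size of its library, is the unit of level. ITGB4 was at 65.0 to 83.7 CPM, KRT17 at 23.9 to 32.6 CPM and PAX9 at 14.9 to 19.9 CPM over the 9 libraries. Summed squamous markers were at 119.1 to 132.0 CPM in Fox, 120.4 to 129.4 CPM in Lipo and 107.3 to 113.5 CPM in Ctrl. Most of each sum came from ITGB4, KRT17 and PAX9. The simple epithelial genes KRT7, KRT8, KRT18, KRT19, EPCAM and CDH1 were all 6 tested. They summed to 3954 to 4209 CPM in Fox, 3446 to 3868 CPM in Lipo and 4057 to 4687 CPM in Ctrl. Most of each sum came from KRT7, KRT8 and KRT18, while EPCAM was at 4.18 to 5.08 CPM and CDH1 at 7.85 to 11.4 CPM. Of 9 fibroblast markers 4 were tested, COL1A1, PDGFRB, THY1 and VIM. The list summed to 3215 to 3579 CPM in Fox, 2948 to 3137 CPM in Lipo and 2937 to 3165 CPM in Ctrl. COL1A1, THY1 and VIM made up most of each sum. Of the rest, COL1A2 and LUM had 0 reads throughout, COL3A1 and DCN at most 6 and PDGFRA at most 2. In Lipo against Ctrl, COL1A1 and PDGFRB were higher by 0.30 and 0.47 on the log2 scale and THY1 was lower, at -0.28 (adjusted p of 0.00431, 6.67e-05 and 0.00368, edgeR). Of the 6 simple epithelial genes 2 were called lower and 0 higher, against 9.37% and 10.2% of all genes. Their lowest log2 fold change was -0.41 and their smallest adjusted p 0.000191 (edgeR). Of the 5 squamous genes tested 0 were called. The part of these marker changes in the results below was not tested. DNAJB9, a chaperone of the endoplasmic reticulum, and COL1A2 also had 0 reads in all 9 libraries, beside 1079 to 1738 CPM for COL1A1, so that TP63 and SOX2 are given as listed at 0 and not as absent from the cells. The cells are called EPC2 by their label only.

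ATF4 was the most abundant member per length in every group. Levels between genes are compared as CPM per kilobase of exon, with exon lengths from GENCODE 29. ATF4 stood at 121.0 ± 5.58 in Fox, 124.6 ± 7.52 in Lipo and 86.2 ± 4.08 CPM per kilobase in Ctrl (SD, n = 3 each). CEBPB came next in each group, at 56.7, 54.1 and 43.0 CPM per kilobase in Fox, Lipo and Ctrl, followed by TRIB3 at 28.6, 29.1 and 17.5. ATF3 was the least abundant, at 1.18, 1.60 and 0.913 CPM per kilobase in Fox, Lipo and Ctrl, with CEBPG next above it at 2.04, 2.31 and 1.59. ATF5 held the fourth place in Ctrl, at 13.2 CPM per kilobase, and the sixth in Fox and in Lipo, at 11.2 and 9.75, where PPP1R15A and SESN2 stood above it. Neighbours whose library ranges overlapped were PPP1R15A with SESN2, SESN2 with ATF5 and CHAC1 with DDIT3 in Fox, DDIT3 with CHAC1 in Lipo, and SESN2 with PPP1R15A and CHAC1 with DDIT3 in Ctrl. The library ranges of all other neighbours in the order did not overlap.

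The effector genes and the factors ATF3, CEBPB and CEBPG are all protein coding and, on GRCh38 in GENCODE 29, all on the plus strand. The loci of ATF4, ATF5 and DDIT3 are given with their levels below. TRIB3 (ENSG00000101255) lies at chromosome 20, 362835 to 397559, and CEBPB (ENSG00000172216), a gene of 1 exon, at chromosome 20, 50190734 to 50192689. ATF3 (ENSG00000162772) lies at chromosome 1, 212565334 to 212620777, and SESN2 (ENSG00000130766) at chromosome 1, 28259527 to 28282491. PPP1R15A (ENSG00000087074) lies at chromosome 19, 48872392 to 48876057, CEBPG (ENSG00000153879) at chromosome 19, 33373330 to 33382686, and CHAC1 (ENSG00000128965) at chromosome 15, 40952962 to 40956519.

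**Figure D1:**
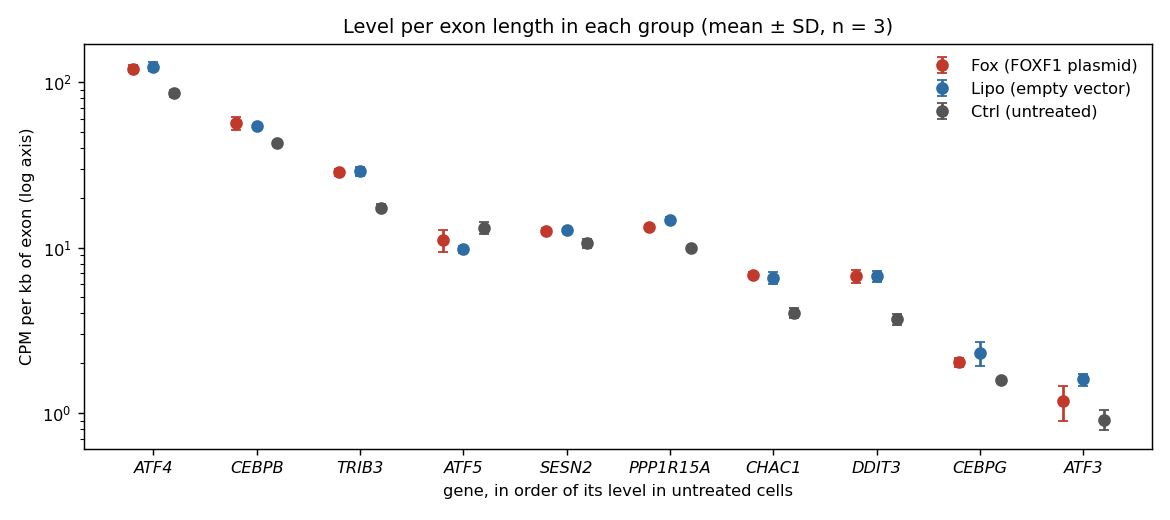
Level of each member as CPM per kilobase of exon on a log axis, as the mean of 3 libraries with bars of 1 SD for Fox, Lipo and Ctrl, in the order of the Ctrl levels. ATF4 lies highest in each group, at 121.0, 124.6 and 86.2, and ATF3 lowest, at 1.18, 1.60 and 0.913.

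Transfection with the empty vector went with higher mRNA of 9 of the 10 members and lower mRNA of ATF5. In Lipo against Ctrl all 10 members passed an adjusted p of 0.05 in edgeR's quasi-likelihood test, against 19.6% of all 16366 genes tested, and all 10 had an unadjusted p under 0.05, against 31.5%. Of these, 9 were higher, against 10.2% of all genes, and 1 was lower, against 9.37%. The 3 Lipo and 3 Ctrl libraries did not overlap for any member, with 9 members higher in every Lipo library, against 17.4% of all genes, and 1 lower in every one, against 15.3%. The members' median log2 fold change was 0.56, beside 0.04 over all genes, and their range was -0.44 to 0.86. The mitochondrial share was lower in Lipo than in Ctrl, and its link to this result was not tested. With mitochondrial genes left out of the scaling all 10 members passed. That setting moved the median of all genes by only 0.0025 on the log2 scale, so it could hardly change the calls. Scaling by library totals moved the median of all genes by 0.25 on the log2 scale and changed the split over all genes to 5721 higher among 6059 called, beside 1676 higher among 3209 called with composition scaling.

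ATF4, the transcription factor at the centre of the pathway, had 333.7, 309.6 and 296.5 CPM in Lipo libraries, against 204.8, 222.5 and 222.7 CPM in Ctrl libraries. Every Lipo library was above every Ctrl library. The log2 fold change was 0.53 ± 0.07 (SE), a 1.45-fold higher level, with an adjusted p of 7.49e-07 in edgeR's quasi-likelihood test. ATF4 (ENSG00000128272) lies on the plus strand of chromosome 22 at 39519695 to 39522685 (GRCh38). Its annotated pseudogenes held at most 71 reads in a library, beside at least 7205 reads for ATF4 itself.

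DDIT3, which encodes the ATF4-induced factor CHOP, known for promoting cell death under long stress, had 9.31, 9.10 and 8.02 CPM in Lipo libraries, against 4.46, 4.85 and 5.22 CPM in Ctrl libraries. This was the largest rise among the members, 1.82-fold, with a log2 fold change of 0.86 ± 0.14 (adjusted p = 5.31e-05, edgeR). DDIT3 (chromosome 12, 57516588 to 57521737, minus strand) shares 355 exon bases with MARS on the opposite strand and 105 with AC022506.1 on the same strand. MARS, too, had more reads in Lipo libraries, at 6418, 6513 and 6791, than in Ctrl libraries, at 4256, 4925 and 4488. DDIT3 had 157 to 401 reads per library. The strand setting of the counting is not stated, so reads of the shared bases cannot be assigned between these genes with certainty.

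ATF3, an early stress factor that can repress transcription, had 5.93, 7.01 and 6.42 CPM in Lipo libraries, against 4.12, 3.11 and 3.83 CPM in Ctrl libraries. Its log2 fold change was 0.81 ± 0.18 (adjusted p = 0.00186, edgeR), and the groups did not overlap. These levels rest on 235 to 309 reads in Lipo libraries and 113 to 145 in Ctrl libraries, the fewest of any member.

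CEBPB, a C/EBP factor that can pair with ATF4, had 105.6, 107.4 and 104.5 CPM in Lipo libraries, against 85.1, 81.9 and 85.3 CPM in Ctrl libraries. The difference was small and larger than the spread, with a log2 fold change of 0.33 ± 0.07 (adjusted p = 0.000568, edgeR). CEBPG, a short C/EBP protein that dimerises with ATF4, had 8.70, 9.80 and 12.04 CPM in Lipo libraries, against 7.11, 7.03 and 6.86 CPM in Ctrl libraries. Lipo library 3 was the highest, and the log2 fold change of 0.54 ± 0.14 (adjusted p = 0.00491, edgeR) fell to 0.40 (adjusted p = 0.0588) without it.

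ATF5, a relative of ATF4 known for its part in the mitochondrial stress response, had 29.8, 27.0 and 29.6 CPM in Lipo libraries, against 42.0, 35.8 and 39.4 CPM in Ctrl libraries. It was the only member that fell, and each Lipo library was below each Ctrl library. The log2 fold change was -0.44 ± 0.09 (adjusted p = 0.000952, edgeR). With scaling by library totals it was -0.19 (adjusted p = 0.114), which is -0.48 relative to the median of all genes under that scaling. ATF5 (chromosome 19, 49928702 to 49933935, plus strand) shares 626 exon bases with NUP62 on the opposite strand, which had 4097 to 5070 reads per library beside 1051 to 1476 for ATF5.

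Among the effectors, TRIB3, a pseudokinase that feeds back on ATF4 and DDIT3, had 107.4, 96.1 and 96.0 CPM in Lipo libraries, against 61.4, 56.4 and 62.3 CPM in Ctrl libraries. Its log2 fold change of 0.73 ± 0.07 had the smallest p of the members (adjusted p = 6.51e-09, edgeR), and it ranked 41 by p among the 16366 genes. CHAC1, an enzyme that breaks down glutathione, had 14.7, 12.6 and 13.2 CPM in Lipo libraries, against 7.70, 8.71 and 8.48 CPM in Ctrl libraries. Its log2 fold change was 0.70 ± 0.12 (adjusted p = 6.01e-05, edgeR). Both genes were higher in every Lipo library than in any Ctrl library.

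PPP1R15A, also called GADD34, brings protein phosphatase 1 to eIF2 and so helps to end the response. It had 47.6, 45.2 and 44.6 CPM in Lipo libraries, against 30.6, 30.2 and 31.1 CPM in Ctrl libraries, a log2 fold change of 0.58 ± 0.07 (adjusted p = 1.06e-06, edgeR). SESN2, a sestrin that senses leucine and restrains mTORC1, had 45.2, 44.2 and 42.3 CPM in Lipo libraries, against 36.4, 34.5 and 39.2 CPM in Ctrl libraries. Its rise was the smallest, with a log2 fold change of 0.26 ± 0.07 (adjusted p = 0.0134, edgeR). Without the first Ctrl, the second Ctrl or the second Lipo library it was 0.24, 0.21 and 0.25, with adjusted p of 0.0585, 0.103 and 0.0525.

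**Figure D2:**
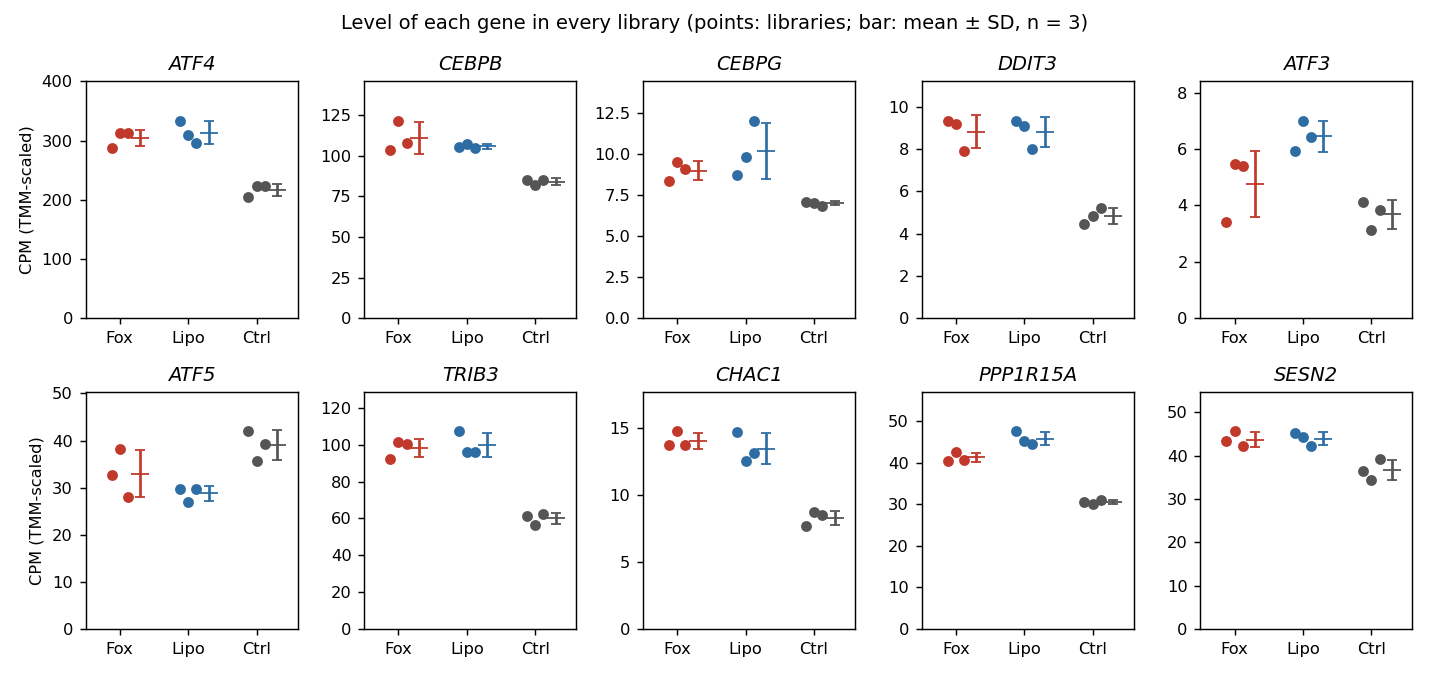
CPM of each member in every library, with points for libraries and bars for the mean ± SD of the 3 libraries of Fox, Lipo and Ctrl. The Lipo points lie above the Ctrl points in 9 panels and below them for ATF5, while Fox and Lipo points overlap in 8 of the 10 panels.

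The FOXF1 plasmid was set against the empty vector to ask what FOXF1 adds to transfection. In Fox against Lipo 0 of the 10 members passed an adjusted p of 0.05 in edgeR's quasi-likelihood test, against 0.055% of all genes, and limma-voom also called 0. DESeq2 called 0 of the 3 members for which it gave an adjusted p, ATF4, TRIB3 and CEBPB, and its filter on mean counts left the other 7 without one. At an unadjusted p under 0.05 there were 3 of 10, against 9.43% of all genes: ATF5 was higher, against 5.09%, and ATF3 and PPP1R15A were lower, against 4.34%. The members' median log2 fold change was -0.01, as it was over all genes. ATF3 and PPP1R15A were lower in every Fox library than in any Lipo library, 2 of 10 members against 5.68% of all genes, and 0 were higher in every Fox library, against 7.33%.

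ATF3 had 3.43, 5.47 and 5.39 CPM in Fox libraries, against 5.93, 7.01 and 6.42 CPM in Lipo libraries. Its log2 fold change was -0.44 ± 0.18, with a 95% interval of -0.81 to -0.07 and an unadjusted p of 0.0203 in edgeR's fit, which did not pass adjustment (adjusted p = 0.455). The first Fox library was the lowest of them, and the coefficient of variation of ATF3 in Fox was 24.3%, beside 7.55% from counting alone. PPP1R15A had 40.4, 42.6 and 40.8 CPM in Fox libraries, against 47.6, 45.2 and 44.6 CPM in Lipo libraries. Its log2 fold change was -0.15 ± 0.07 with an unadjusted p of 0.0464 (adjusted p = 0.526, edgeR). Neither gene was called under any of the 18 alternatives, among which DESeq2 gave neither an adjusted p.

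ATF5 had 32.7, 38.1 and 28.0 CPM in Fox libraries, against 29.8, 27.0 and 29.6 CPM in Lipo libraries, which overlap. Its log2 fold change was 0.19 ± 0.09 with an unadjusted p of 0.0465 (adjusted p = 0.526, edgeR), and it was 0.07 without the second Fox library. For the other members the intervals bound the difference instead of showing that there is none. The log2 fold change of ATF4 had a 95% interval of -0.18 to 0.09, and that of TRIB3 one of -0.16 to 0.12. CEBPB and SESN2 had intervals of -0.07 to 0.20 and -0.16 to 0.15. The wider intervals were those of DDIT3, at -0.28 to 0.28, CHAC1, at -0.17 to 0.29, and CEBPG, at -0.46 to 0.09.

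The Fox libraries were also set against the untreated cells, which are the same Ctrl libraries as in Lipo against Ctrl, so the comparisons are not independent. In Fox against Ctrl 7 of the 10 members were called, against 8.52% of all genes, and all 7 were higher, against 4.63%, while 0 were lower, against 3.89%. At an unadjusted p under 0.05 only ATF5 was lower, 1 of 10 against 10.1% of all genes. The members' median log2 fold change was 0.42, beside 0.02 over all genes, and 8 members were higher in every Fox library, against 14.1% of all genes. With scaling by library totals the split over all genes was 2320 higher among 2500 called, beside 757 among 1394 with composition scaling.

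ATF4 had 288.0, 312.6 and 312.0 CPM in Fox libraries, all above the 204.8 to 222.7 CPM of Ctrl libraries, and a log2 fold change of 0.49 ± 0.07 (adjusted p = 6.40e-06, edgeR). DDIT3 had 9.35, 9.18 and 7.92 CPM in Fox libraries, a log2 fold change against Ctrl of 0.86 ± 0.14 (adjusted p = 0.000141, edgeR). TRIB3 had 92.6, 101.5 and 100.6 CPM, with a log2 fold change of 0.71 ± 0.07 (adjusted p = 3.69e-08, edgeR). These are the pathway's central factor, its death-linked factor and its feedback pseudokinase. CHAC1 had 13.7, 14.8 and 13.7 CPM in Fox libraries, with a log2 fold change against Ctrl of 0.76 ± 0.12 (adjusted p = 5.14e-05, edgeR). CEBPB, with 103.3, 121.7 and 107.9 CPM, and PPP1R15A were higher by 0.40 ± 0.07 and 0.43 ± 0.07 on the log2 scale.

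SESN2 had 43.4, 45.6 and 42.2 CPM in Fox libraries and was called at a log2 fold change of 0.25 ± 0.08 (adjusted p = 0.0318, edgeR). The call was lost without any 1 of the 3 Fox libraries or without the first or second Ctrl library, with log2 fold changes of 0.20 to 0.28 and adjusted p of 0.0528 to 0.201. The 3 members not called against Ctrl were ATF5, ATF3 and CEBPG. The level of ATF5 differed by -0.24 ± 0.09 on the log2 scale (adjusted p = 0.103, edgeR), and without the second Fox library it was -0.37 (adjusted p = 0.0192). ATF3 was at 0.37 ± 0.19 (adjusted p = 0.253) and CEBPG, with 8.38, 9.50 and 9.07 CPM in Fox libraries, at 0.36 ± 0.14 (adjusted p = 0.110, edgeR). That ATF5, ATF3 and CEBPG passed in Lipo and not in Fox does not show that Fox and Lipo differ, since none of them was called in Fox against Lipo.

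**Figure D3:**
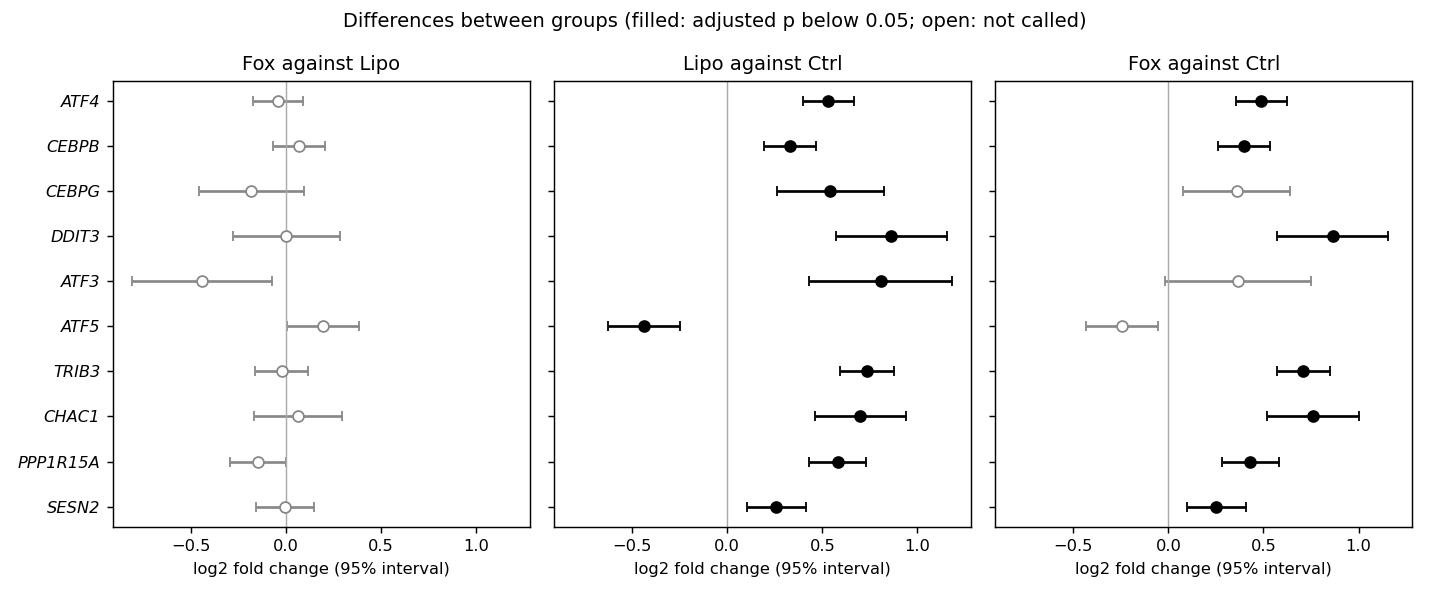
Log2 fold change of each member in Fox against Lipo, Lipo against Ctrl and Fox against Ctrl, with 95% intervals from edgeR's quasi-likelihood fit. In Lipo against Ctrl the 10 intervals lie off 0, from -0.44 for ATF5 to 0.86 for DDIT3, and in Fox against Lipo the estimates lie between -0.44 and 0.19.

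Summed, the 10 members held 668.0 ± 32.9 CPM in Fox, 676.4 ± 28.4 CPM in Lipo and 491.0 ± 11.6 CPM in Ctrl (SD, n = 3 each). ATF4 made up 45.6 ± 1.09% of their summed counts in Fox, 46.3 ± 0.875% in Lipo and 44.1 ± 1.76% in Ctrl. The sum is therefore led by ATF4, and the low members ATF3, CEBPG, DDIT3 and CHAC1 add little to it.

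Other genes of the pathway were described from lists of genes by role. Like the members, the lists were chosen with earlier results of these data known. Their counts beside the shares over all genes are a description and not a test. Of 22 ATF4 and DDIT3 target genes outside the members, 21 were tested, and 19 were higher and 0 lower in Lipo against Ctrl, against 10.2% higher and 9.37% lower over all genes, with a median log2 fold change of 0.73. GDF15, a secreted stress cytokine, had 43, 73 and 62 reads in Lipo libraries, against 11, 4 and 14 in Ctrl libraries, a log2 fold change of 2.34 ± 0.41 (adjusted p = 9.98e-05, edgeR). SLC7A11, the cystine transporter subunit, had 35, 51 and 55 reads in Lipo libraries, against 13, 8 and 11 in Ctrl libraries, a log2 fold change of 1.87 ± 0.41 (adjusted p = 0.0014, edgeR). STC2, a secreted glycoprotein, averaged 105.8 ± 0.638 CPM in Lipo and 47.7 ± 1.63 CPM in Ctrl (SD, n = 3 each), a log2 fold change of 1.15 ± 0.07 (adjusted p = 4.65e-13, edgeR). The target genes not called were PHGDH, of serine synthesis, at -0.02 ± 0.07, and BCL2L11, the cell death gene BIM, at 0.05 ± 0.08. FGF21, also on the list, had at most 7 reads and was not tested.

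The 20 genes upstream of ATF4 were eIF2 kinases, subunits of eIF2 and eIF2B, phosphatase genes and the kinase regulators DELE1, OMA1, GCN1 and IMPACT. In Lipo against Ctrl 6 of the 20 were higher and 5 lower, against the same 10.2% and 9.37% of all genes, with a median log2 fold change of 0.05. Of these calls only that of EIF2S3 held under all 18 alternatives. Without the first or without the second Ctrl library 2 were higher and 3 lower. Without the second Lipo library 3 were higher and 2 lower. EIF2S3, a subunit of eIF2, was at 0.44 ± 0.08 (adjusted p = 0.000158, edgeR), and EIF2AK3, which encodes PERK, at 0.45 ± 0.14 (adjusted p = 0.0172), lost without the first or second Ctrl or the second Lipo library, where its highest adjusted p was 0.157. PPP1CB, a catalytic subunit of phosphatase 1, was at 0.79 ± 0.17 (adjusted p = 0.00134, edgeR), with 14.3, 24.4 and 35.9 CPM in Lipo libraries that overlap the 13.9 to 14.9 CPM of Ctrl libraries, and DESeq2 did not call it (adjusted p = 0.0566). EIF2AK1, the haem-regulated kinase HRI, fell by 0.34 ± 0.07 and EIF2B2, a subunit of the exchange factor, by 0.30 ± 0.07. With scaling by library totals these were -0.09 and -0.05 and were not called, and the list then had 11 higher and 0 lower. Relative to the median of all genes under that scaling, EIF2AK1 was at -0.38 and EIF2B2 at -0.34.

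Of 16 relatives of the members, from the ATF, BATF, C/EBP, Tribbles, sestrin and CHAC families, 14 were tested. In Lipo against Ctrl 2 of the 14 were higher and 1 lower, which is near the 10.2% and 9.37% of all genes. ATF6, the membrane-bound factor of endoplasmic reticulum stress, was at 0.56 ± 0.12 (adjusted p = 0.000759, edgeR) and CEBPD at 0.22 ± 0.07 (adjusted p = 0.0212). ATF7 was at -0.29 ± 0.09 (adjusted p = 0.0246, edgeR), lost without Ctrl library 2 or 3 or Lipo library 2. With scaling by library totals ATF7 was at -0.05 and not called (adjusted p = 0.723, edgeR). Relative to the median of all genes under that scaling it was at -0.34. The CEBPD call was lost with RLE factors, another scaling, and without Ctrl library 1 or 2 or Lipo library 2 or 3. Of 15 genes of the XBP1 and ATF6 arms of the unfolded protein response, 14 were tested, with 12 higher and 0 lower and a median log2 fold change of 0.41. The endoplasmic reticulum chaperones and oxidoreductases led it, with PDIA4 at 1.23 ± 0.08, HSPA5, which encodes BiP, at 0.93 ± 0.07 and HSP90B1 at 0.85 ± 0.07 on the log2 scale (adjusted p of 1.3e-11, 6.95e-11 and 1.51e-10, edgeR).

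In Fox against Lipo none of these 4 lists had a called gene in edgeR's fit, and limma-voom called 0 as well, with medians of -0.10 for the targets, -0.04 upstream, -0.04 for the relatives and -0.08 for the XBP1 and ATF6 arms. At an unadjusted p under 0.05 there were 3 of 21 targets, 2 of 20 upstream genes, 1 of 14 relatives and 3 of 14 genes of the XBP1 and ATF6 arms, all with a negative fold change, against 9.43% of all genes either way and 4.34% lower. Without Lipo library 1, ERO1A, MTHFD2, EIF2AK2 and PPP1CB were called lower in Fox, 4 of 69 list genes. In that fit 327 of all genes were called, beside 9 with all libraries, and 1.06% of all genes were called lower. In Fox against Ctrl 4.63% of all genes were higher and 3.89% lower. The targets had 18 of 21 higher and 0 lower, with a median of 0.60. The XBP1 and ATF6 arms had 11 of 14 higher and 0 lower, with a median of 0.40. The upstream genes had 1 of 20 higher and 3 lower, and the relatives 2 of 14 higher and 0 lower. The higher relatives were ATF6 and TRIB2, the second named after its values were seen. Each of the calls among upstream genes and relatives was lost in some fits that left out 1 library.

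**Figure D4:**
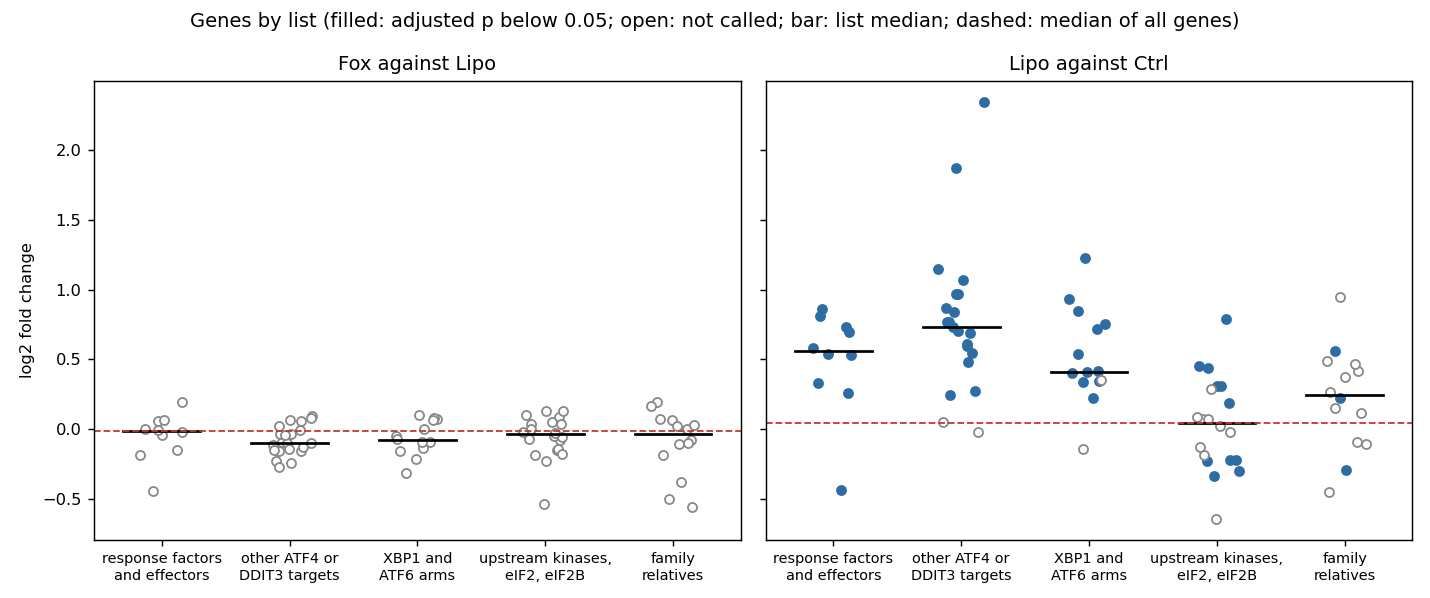
Log2 fold changes of the members and of the tested genes of each list in Fox against Lipo (left) and Lipo against Ctrl (right), with 1 point per gene, filled where called, a bar at each list's median and a dashed line at the median of all genes. The median of the targets is -0.10 in Fox against Lipo and 0.73 in Lipo against Ctrl, and that of the upstream genes is -0.04 and 0.05.

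The genes whose log2 CPM followed ATF4 most closely over the 9 libraries, among 10585 candidates, were AARS (Pearson r = 0.991), IL21R (0.989), TAP1 (0.985), UBXN6 (0.984) and CARS (0.982). These are correlations over libraries that share the group difference, and are given as a description. AARS, the cytosolic alanyl-tRNA synthetase, averaged 443.8 ± 20.4 CPM in Fox, 466.0 ± 27.3 CPM in Lipo and 333.4 ± 3.79 CPM in Ctrl (SD, n = 3 each). CARS, the cytosolic cysteinyl-tRNA synthetase, averaged 48.0 ± 3.72, 53.1 ± 3.96 and 33.2 ± 1.89 CPM in Fox, Lipo and Ctrl. Of the members, CHAC1 and TRIB3 lay closest to ATF4 by the same measure, both at 0.978, followed by PPP1R15A at 0.967 and DDIT3 at 0.962. ATF3, at 0.723, and CEBPG, at 0.770, were the loosest of those that moved the same way, and ATF5 was at -0.764.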

How the data were processed

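RNA from 9 libraries of EPC2 cells was sequenced with a stranded poly(A) kit, per the labels' protocols. The authors deposited raw counts of reads per gene for all 9 libraries. The submitters' processing notes name bcl2fastq, STAR 2.5.2b, HTSeq and GRCh38, and the strand setting of counting is not given in the sources used here. Genes with too few counts were left out with edgeR's filterByExpr (minimum count 10), and 16366 of 64253 genes were kept. Counts were scaled by TMM and tested in 1 quasi-likelihood fit over the 9 libraries with edgeR 4.0.16 in R 4.3.3. P-values were adjusted by Benjamini-Hochberg over all genes, with 0.05 as the threshold. CPM values use TMM-scaled library sizes. Standard errors were derived from the size of each fold change and its F statistic, and 95% intervals from those errors. A count of 0 allows up to 0.0751 to 0.0872 CPM, from 3 counts over the library total without the TMM factor. This covers counting error only. Exon lengths come from GENCODE 29 and promoters from RefSeq GRCh38.p14. Alternatives were DESeq2 1.42.0, limma-voom 3.58.1, other scalings and filters, a replicate block and leaving out each library. Libraries of 1 group differed by more than sampling noise (chi-square per degree of freedom of 8.6 to 23.2). The members, the lists and the rules were chosen with earlier results of these data known. Named genes outside the members were, per list, those called in Lipo against Ctrl with the 3 largest rises and 2 largest falls and any called in Fox against Lipo, and the 5 genes most correlated with ATF4.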

Additional observations from a re-analysis of the deposited data

How the results depend on the processing

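In Lipo against Ctrl the 10 members gave 175 of 180 values on the same side of the threshold over 18 alternatives, and 5 lost the call, all named with their values above. Over leave-one-out fits the members called were 9 to 10 in Lipo against Ctrl, 6 to 7 in Fox against Ctrl and 0 to 0 in Fox against Lipo. All genes called ranged over those fits from 2084 to 3902, from 823 to 1736 and from 1 to 327, and the pathway genes from 34 to 47, from 26 to 36 and from 0 to 4. Beside the 9 genes called in Fox against Lipo, the count was 16 with RLE factors, 4 with TMM without mitochondrial genes, 104 with DESeq2 and 96 without a filter, which also gave 1 pathway gene. With totals as the scaling, 6059 genes were called in Lipo against Ctrl and 2500 in Fox against Ctrl. With the replicate block, Fox against Lipo had 16 genes called and the members had 0, 10 and 7 calls, as without it. Same-numbered libraries did not deviate together (r of -0.09 to 0.084), so the numbers were not taken as pairs. In Fox against Lipo 19 uncalled values changed sign. SESN2 was 0.0077 with RLE and 0.0071 with DESeq2, and ran from -0.041 to 0.019 over the leave-one-out fits. DDIT3 was -0.097 with totals, -0.0098 without mitochondrial genes, -0.014 unfiltered and -0.0102 with only the groups compared, and ran from -0.062 to 0.073. CHAC1 was -0.035 and CEBPB -0.033 with totals, a scaling that moved the median of all genes by -0.098: relative to that median DDIT3, CHAC1 and CEBPB were at 0.016, 0.077 and 0.08, so their signs did not turn against other genes. CEBPB ran from -0.0066 to 0.117, ATF4 from -0.081 to 0.0053 and TRIB3 from -0.051 to 0.032. In Fox against Ctrl, SESN2 also lost its call with RLE (0.24, adjusted p = 0.0521) and unfiltered (0.24, adjusted p = 0.0634), and CEBPG gained one with totals (0.51, adjusted p = 0.0208). The cause of the other changes was not tested. At these depths ATF3 rests on 113 to 309 reads per library and has the widest intervals.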

Other observations

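All 10 members lay above their group mean on the log2 scale in the second Fox library, the one with the fewest reads, where 49.5% of all tested genes lay above theirs. The median deviation of the members there was 0.07, beside -0.0012 over all genes. In some other libraries, too, members lay mostly on 1 side. In Ctrl library 3, 9 of 10 members lay above the group mean, and in Lipo library 1, 7 did. In Lipo library 3 and in the first Fox library 2 of 10 did, and in each remaining library 4 or 5. Of all tested genes, 49.3% to 52.6% lay above their group mean in each library. Deviations within a group offset one another, so these counts are not independent. ATF5 and ATF3 had the largest deviations in the second Fox library.

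Of the list genes called lower in Fox than in Lipo without the first Lipo library, where calls over all genes went up to 327, ERO1A and MTHFD2 are targets. With all libraries neither was called: ERO1A averaged 54.8 ± 5.39 CPM in Fox and 64.1 ± 12.5 CPM in Lipo, and MTHFD2 averaged 101.5 ± 10.5 CPM in Fox and 120.1 ± 17.3 CPM in Lipo (SD, n = 3 each).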
